A study of Rattus norvegicus with 8 samples.

Results

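The nuclear genes for the subunits of the oxidative phosphorylation complexes were followed in rat thoracic aorta after repeated dosing with nitroglycerin. Members were taken by symbol: Nduf followed by a, b, c, s or v and a digit, Sdha to Sdhd, Uqcr, Cox4 to Cox8, and Atp5. Of 27742 rows in the deposited gene table, 85 carried such a symbol, and 82 of these included an annotated transcript. With 1 row kept per symbol, that of highest mean, 80 genes remained: 35 of complex I, 4 of complex II, 8 of complex III, 16 of complex IV and 17 of complex V. Both groups were male, wild-type Sprague Dawley rats, aged 12 weeks and weighing 180 to 200 g per the labels. The 4 nitroglycerin libraries came from rats dosed under the skin with 100 mg/kg, 3 times a day for 3 days, and the 4 control libraries from rats given ethanol, the vehicle. Nothing in the labels ties a library to its own rat, so p-values measure the spread between libraries, which may be technical. The tissue is labelled as aorta, although the wording on RNA extraction mentions adipose, which was not resolved. In whole tissue fewer cells of a type and less RNA per cell cannot be told apart.

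Oxidative phosphorylation takes electrons from NADH at complex I and from succinate at complex II, and passes them through complex III to complex IV, where oxygen is reduced. Complexes I, III and IV pump protons out of the mitochondrial matrix, and complex V, the ATP synthase, uses their return to make ATP. Most subunits are encoded in the nucleus and the rest in mitochondrial DNA. In vascular smooth muscle, mitochondria also house the aldehyde dehydrogenase that bioactivates nitroglycerin, and mitochondrial oxidants have been studied as a part of nitrate tolerance.

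Values are FPKM, a read level scaled for transcript length and library size, as deposited. Depth was 7.48 to 8.86 gigabases of aligned sequence in the controls and 6.77 to 8.39 in the nitroglycerin libraries. Smooth muscle markers were high in all 8 libraries, with Acta2 at 1061 to 2401 FPKM and Myh11 at 108 to 169 FPKM. Rows named as ribosomal RNA held 9.43 to 20.6% of summed FPKM in the controls and 9.30 to 12.5% in the nitroglycerin libraries. FPKM are shares of a library, and most genes stood higher in the nitroglycerin group: the median of 12977 tested rows differed by 0.30 on the log2(FPKM + 1) scale. The main results are therefore also given after median-of-ratios rescaling, which brings that median to 0.01. The part of the ribosomal rows in this shift was not tested. Nitroglycerin library 1 stood apart in markers of fat, and results are given without it as well.

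As deposited, the subunit genes were higher in the nitroglycerin group, by a little more than the median gene, and almost none passed the test on its own. The 80 genes together made up 0.400, 0.593, 0.599 and 0.511% of summed FPKM in control libraries 1 to 4, and 0.842, 0.702, 0.727 and 0.712% in nitroglycerin libraries 1 to 4. The groups did not overlap as deposited, and nitroglycerin library 1 was the highest. After rescaling the summed level of the 80 genes was 1151, 1023, 1067 and 1031 in controls 1 to 4 and 1231, 1083, 1084 and 1097 in nitroglycerin libraries 1 to 4, and control 1 then lay above nitroglycerin libraries 2 to 4. The difference was above 0 for 74 of the 80 genes, with 86.6% of all tested rows above 0. The median difference over the 80 genes was 0.41 on the log2(FPKM + 1) scale, and 0.08 after rescaling. After rescaling 52 of the 80 were above 0, against 52.4% of all tested rows.

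**Figure D1:**
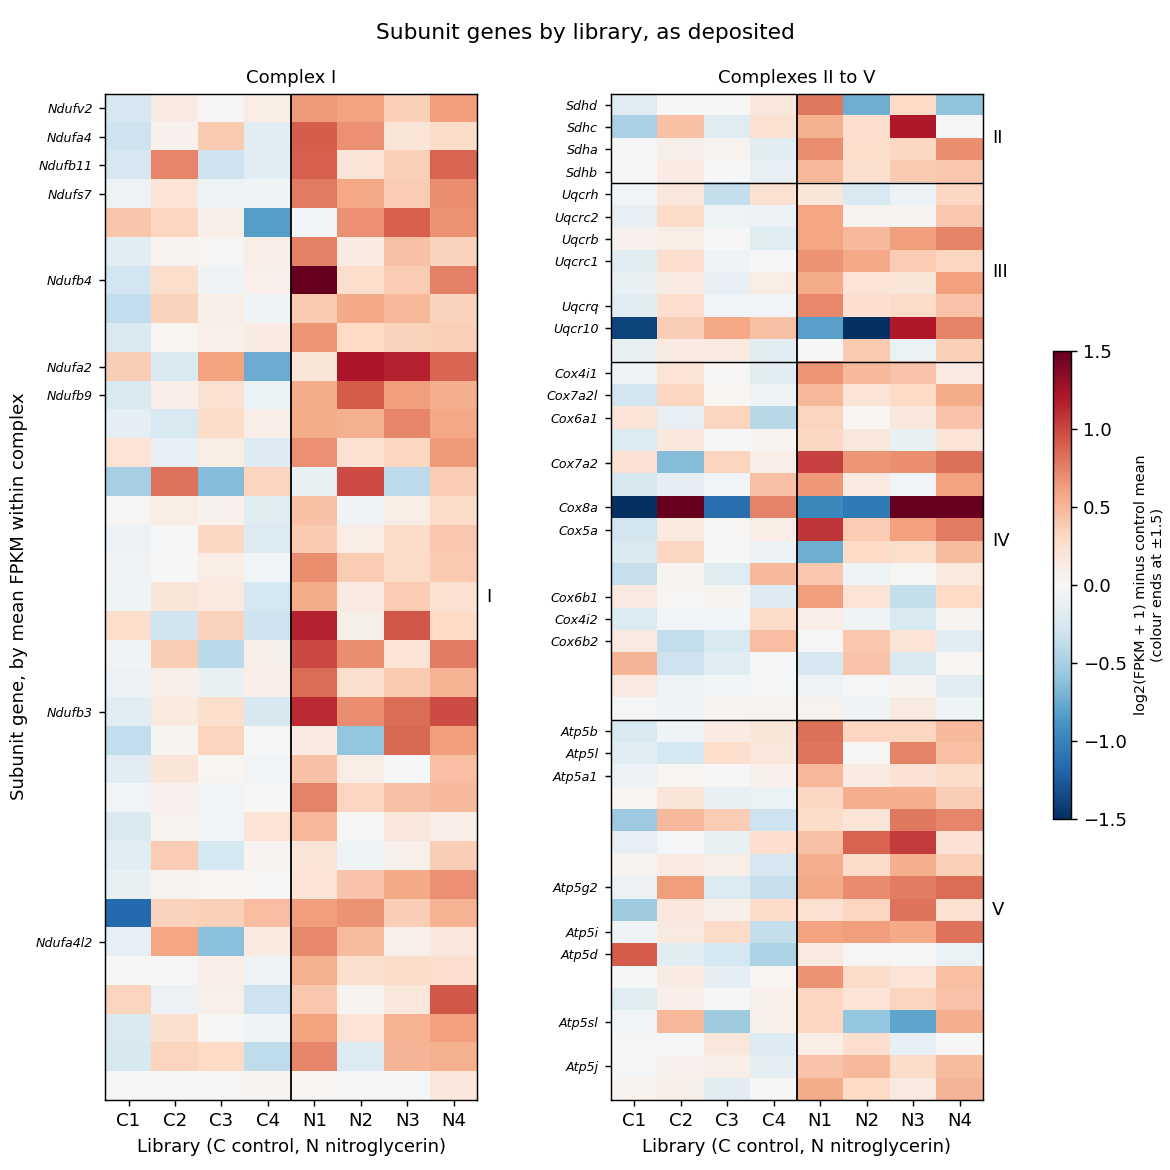
Each of the 80 subunit genes (rows, by complex and mean FPKM) in each library (columns, C control, N nitroglycerin), as log2(FPKM + 1) minus the control mean (colours end at ±1.5), with names for 36 of them. Red (higher) fills most of the 4 nitroglycerin columns, above all in complex I and in nitroglycerin library 1, which was the highest of the 8 libraries for 37 of the 80 genes.

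Of the 80 genes, 75 reached 1 FPKM in 4 or more libraries and were tested, and each of the 75 had that level in at least 2 libraries of each group. The other 5 were Ndufa13, Cox6a2, Cox7a1, Cox8b and Atp5s, each with a mean under 1 FPKM. Ndufb3 and Uqcrb rose at a limma adjusted p under 0.05, a call made for 1.29% of tested rows, and no member fell (0.0616% of rows). After rescaling 0 of 75 members were called in either direction, where 0.0308% of rows were called higher and 0.1% lower. At an unadjusted limma p under 0.05, 40 of 75 were higher and 0 lower as deposited, against 34.1% and 1.02% of rows. After rescaling these counts were 3 higher and 0 lower, against 5.5% and 6.44% of rows, so the share of higher members lay near that of all genes. All 4 nitroglycerin libraries exceeded all 4 controls for 30 of the 75 (24.2% of rows) and for 2, Ndufb3 and Cox5a, after rescaling (3.78%). For every other member a lack of overlap given below, with the nitroglycerin libraries higher, is that of the deposited values and was not kept after rescaling. The reverse held for 0 members as deposited (0.478% of rows) and for 1, Cox6c, after rescaling (4.45%).

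The calls depended on which rows entered the fit. With rows holding only assembled transcripts left out of the fit and its adjustment, 10 of the 75 were called higher and 0 lower, against 8.05% and 0.148% of the 10104 rows then tested. Besides Ndufb3 and Uqcrb these were Ndufb9, Ndufs7, Ndufs8, Ndufv2, Ndufv3, Cox5a, Atp5i and Atp5j, at limma adjusted p values between 0.0387 and 0.0486. With the same rows rescaled, 0 members were called.

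**Figure D2:**
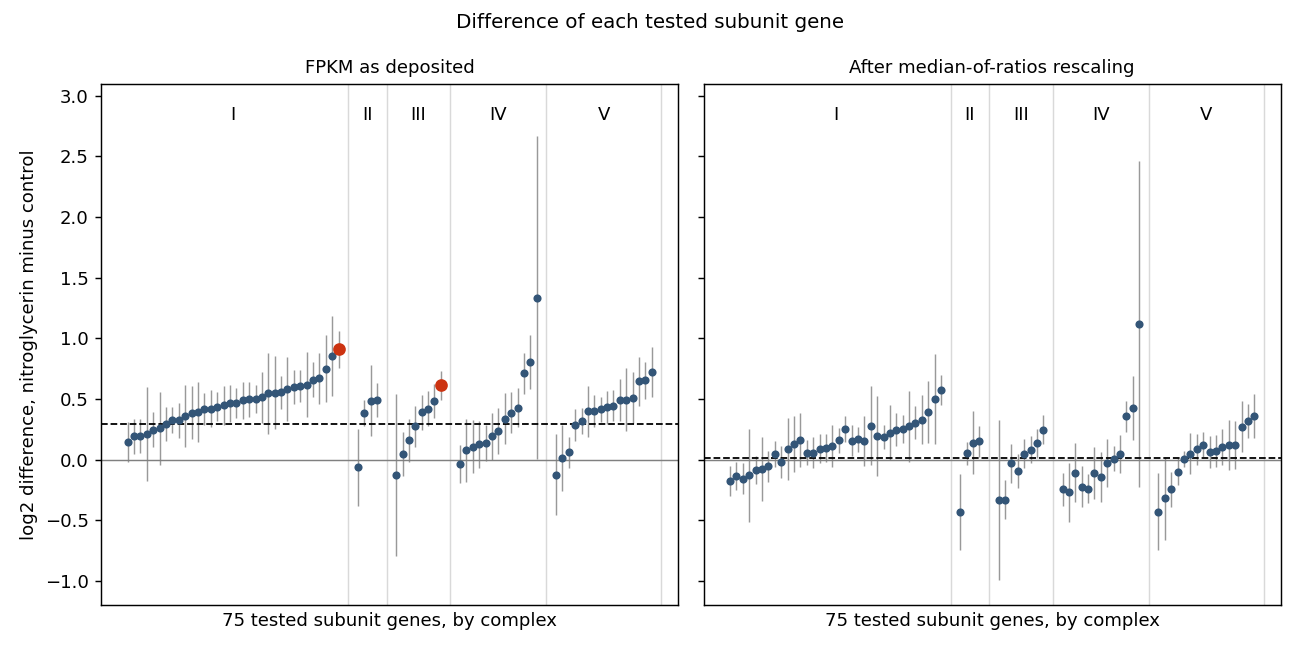
Log2 difference in FPKM + 1 (nitroglycerin minus control, bars ± SE) for each of the 75 tested genes, ordered within each complex, as deposited (left) and after rescaling (right). The dashed line is the median of all tested rows (0.30 and 0.01), and red points mark the 2 called genes, Ndufb3 and Uqcrb.

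The start sites of these genes were examined because regulators such as NRF1 and the ETS protein GABP are known to act on respiratory genes. RefSeq promoters (GRCr8 build) were matched for 70 of the 80 genes, and the 250 bases before the annotated start are used. The 5 shown belong to the matched gene of lowest p in each complex, and capitals mark motif letters on either strand. They lie at chr9:67623167-67623416 for Ndufb3, chr5:158547684-158547933 for Sdhb, chr8:118467973-118468222 for Uqcrc1, chr8:66818034-66818283 for Cox5a and chr14:1464610-1464859 for Atp5i (Atp5me in RefSeq), all on the plus strand.
Ndufb3: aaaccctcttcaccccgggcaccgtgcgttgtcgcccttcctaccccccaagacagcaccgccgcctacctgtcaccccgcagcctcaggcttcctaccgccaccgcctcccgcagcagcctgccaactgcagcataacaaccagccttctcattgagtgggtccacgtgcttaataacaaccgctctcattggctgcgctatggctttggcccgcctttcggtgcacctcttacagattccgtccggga
Sdhb: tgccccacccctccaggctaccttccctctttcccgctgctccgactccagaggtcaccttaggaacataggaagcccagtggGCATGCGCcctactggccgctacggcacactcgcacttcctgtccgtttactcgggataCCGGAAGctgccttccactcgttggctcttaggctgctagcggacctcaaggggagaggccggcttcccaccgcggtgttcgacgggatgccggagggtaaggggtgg
Uqcrc1: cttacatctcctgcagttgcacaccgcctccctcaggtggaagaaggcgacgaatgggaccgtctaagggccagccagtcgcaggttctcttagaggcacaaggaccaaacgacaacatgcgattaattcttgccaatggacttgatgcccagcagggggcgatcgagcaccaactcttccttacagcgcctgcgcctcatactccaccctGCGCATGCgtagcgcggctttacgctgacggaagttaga
Cox5a: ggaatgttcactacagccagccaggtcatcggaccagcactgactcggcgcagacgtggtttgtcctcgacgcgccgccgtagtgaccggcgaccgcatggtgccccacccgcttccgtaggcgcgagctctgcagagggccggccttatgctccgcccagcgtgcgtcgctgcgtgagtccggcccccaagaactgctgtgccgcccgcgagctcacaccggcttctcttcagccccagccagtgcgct
Atp5i: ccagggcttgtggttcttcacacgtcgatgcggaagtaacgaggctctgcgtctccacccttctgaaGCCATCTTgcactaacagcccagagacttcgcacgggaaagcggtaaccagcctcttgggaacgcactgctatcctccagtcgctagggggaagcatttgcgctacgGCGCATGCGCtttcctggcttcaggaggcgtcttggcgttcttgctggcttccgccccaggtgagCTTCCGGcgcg
The Atp5i promoter held the full palindromic NRF1 motif, an ETS motif (CCGGAAG, on the minus strand) and a YY1 motif (AAGATGGC, on the minus strand). Sdhb held an ETS motif and the shorter NRF1 core GCGCATGC, and Uqcrc1 held the shorter core. The Ndufb3 and Cox5a windows held none of the letters searched.

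Over the 70 promoters, the ETS letters CCGGAAG were found in 19 (27.1%), against 9.51% of 19005 protein-coding promoters of the same length. The full NRF1 motif was in 4 (5.71%, against 1.04%), and its shorter core GCGCATGC, which lies within it, in 8 (11.4%, against 2.96%). TATAAA was in 4 (5.71%, against 12.4%). YY1 letters AAGATGGC were in 2 (2.86%, against 1.67%) and the ERR letters TCAAGGTCA in 1 (1.43%, against 0.3%). Both strands were searched, and the median GC content was 55.8% for members and 54.8% for all. These are matches of letters and do not show binding. Of the regulators themselves, Gabpa, the DNA-binding subunit of GABP, averaged 2.65 ± 1.29 FPKM in controls and 4.99 ± 0.784 with nitroglycerin (limma adjusted p = 0.0750, 0.468 after rescaling). Nrf1 averaged 3.56 ± 0.506 and 4.72 ± 0.114 FPKM (limma adjusted p = 0.0840, 0.929 after rescaling).

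Complex I, the NADH dehydrogenase, was higher in every member as deposited: all 35 genes had a difference above 0 (86.6% of all tested rows). After rescaling 27 were above 0 (52.4% of rows). The median difference of the complex was 0.46, and 0.15 after rescaling. The summed level of its genes was 209.9, 263.6, 244.3 and 218.6 FPKM in controls 1 to 4 and 380.6, 321.1, 322.0 and 346.4 FPKM in nitroglycerin libraries 1 to 4, with no overlap. After rescaling the sums did overlap, with controls at 241.7 to 282.9 and nitroglycerin libraries at 271.1 to 328.6. Of 34 tested, 20 had an unadjusted p under 0.05 in the limma fit (34.1% of rows), 15 did not overlap between groups (24.2%), and 1 was called (1.29%). After rescaling these counts were 2, 1 and 0, against 5.5%, 3.78% and 0.0308% of rows.

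Ndufb3, an accessory subunit of the membrane arm, was the called gene. It stood at 3.81, 4.96, 5.46 and 3.58 FPKM in controls 1 to 4 and at 10.7, 7.77, 8.69 and 9.65 FPKM in nitroglycerin libraries 1 to 4. Every nitroglycerin library was above every control, and library 1 was the highest. The means were 4.46 ± 0.904 and 9.21 ± 1.28 FPKM (SD, n = 4 a group), 0.91 apart on the log2 scale (SE 0.15, limma adjusted p = 0.0471). After rescaling the libraries still did not overlap (3.96 to 6.01 against 7.28 to 9.28) and the difference was 0.58 (SE 0.12, limma adjusted p = 0.145). Without nitroglycerin library 1 it was 0.84 (limma adjusted p = 0.122).

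The core subunits of the arm that carries electrons were next. Ndufs7, which holds the last iron-sulfur cluster before ubiquinone, stood at 9.66, 11.9, 9.63 and 9.80 FPKM in controls and 18.3, 15.7, 13.6 and 17.2 FPKM in nitroglycerin libraries, a difference of 0.61 (SE 0.13, limma adjusted p = 0.0558). Ndufv2, an iron-sulfur subunit of the NADH-binding module, stood at 11.9, 15.7, 14.5 and 15.6 against 22.9, 22.3, 18.6 and 22.7 FPKM, a difference of 0.55 (SE 0.13, limma adjusted p = 0.0598). Neither gene overlapped between groups as deposited, and their rescaled differences were 0.25 and 0.19. Ndufb9, another accessory subunit of the membrane arm, had means of 8.08 ± 1.29 and 13.3 ± 1.80 FPKM, a difference of 0.66 (SE 0.15, limma adjusted p = 0.0573), and 0.31 once rescaled.

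Some accessory genes were high in a few libraries only. Ndufb4 stood at 6.88 to 10.5 FPKM in controls and at 27.9, 10.5, 11.5 and 15.2 FPKM in nitroglycerin libraries, and its difference was 0.75, 0.47 without library 1, and 0.39 once rescaled. Ndufb11 stood at 8.43 to 18.5 against 12.4 to 20.8 FPKM, with control 2 within the nitroglycerin range. Ndufa2 stood at 9.73, 6.09, 11.6 and 3.97 against 8.41, 18.3, 17.5 and 14.2 FPKM, here with nitroglycerin library 1 the lowest of its group (difference 0.85, SE 0.33, limma adjusted p = 0.109, and 0.50 once rescaled). Ndufa4, counted here by its symbol and since assigned to complex IV, had means of 13.2 ± 3.11 and 19.4 ± 4.85 FPKM (limma adjusted p = 0.124). Ndufa13, at 0 to 0.14 FPKM, was near or at 0 in all 8 libraries.

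**Figure D3:**
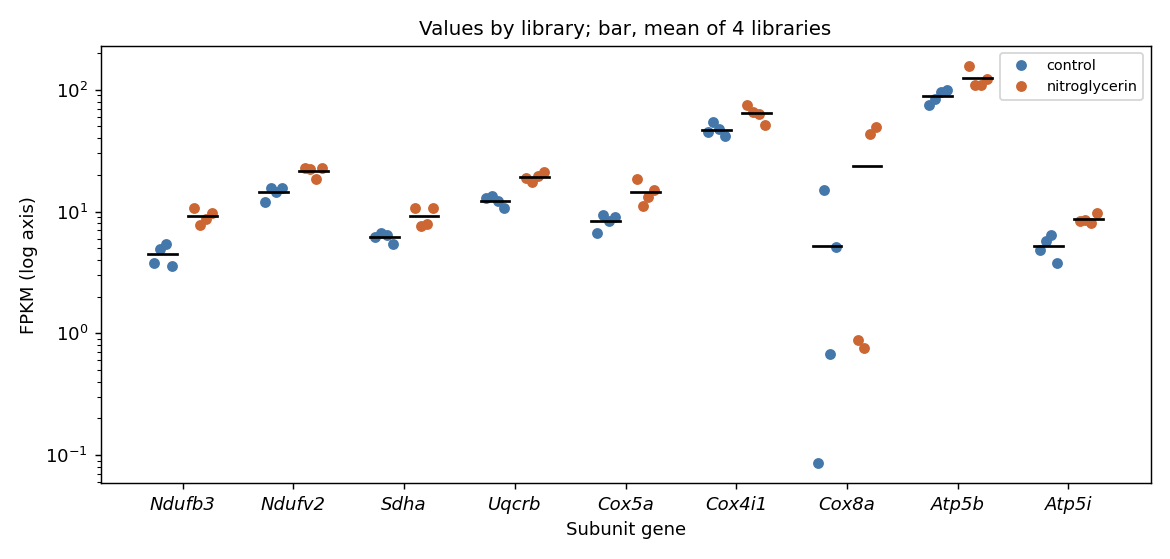
FPKM (log axis) of 9 subunit genes in each library (points, blue control, orange nitroglycerin) with group means (bars). Ndufb3 separates the groups without overlap, at 3.58 to 5.46 against 7.77 to 10.7 FPKM.

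Complex II, the succinate dehydrogenase, had a median difference of 0.44 over its 4 genes, and 0.10 after rescaling. Sdha, the flavoprotein that oxidises succinate, stood at 6.20, 6.63, 6.43 and 5.42 FPKM in controls and 10.6, 7.57, 7.88 and 10.6 FPKM in nitroglycerin libraries. Sdhb, the iron-sulfur subunit, stood at 4.99, 5.58, 5.03 and 4.56 against 7.55, 6.10, 6.90 and 6.99 FPKM. Neither overlapped between groups. Their differences were 0.49 (SE 0.14) and 0.38 (SE 0.11), at limma adjusted p = 0.0692 and 0.0675, and 0.15 and 0.05 after rescaling. The membrane anchor Sdhd stood at 16.0 to 20.7 FPKM in controls and at 32.4, 10.6, 22.8 and 11.8 in nitroglycerin libraries, so that libraries 2 and 4 were below all controls and 1 and 3 above (difference -0.06, SE 0.32, limma adjusted p = 0.893). Sdhc, the other anchor, overlapped too, at 5.28 to 10.9 against 7.6 to 19.1 FPKM, with a difference of 0.49 (SE 0.29), as large as that of Sdha, and 0.14 after rescaling.

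Complex III, which passes electrons from ubiquinol to cytochrome c, had a median difference of 0.33 over its 8 genes, and 0.01 after rescaling. Uqcrb, the ubiquinone-binding protein, was the second called gene. It stood at 12.9, 13.3, 12.2 and 10.7 FPKM in controls and 18.9, 17.5, 19.5 and 21.3 FPKM in nitroglycerin libraries. The groups did not overlap, and the values within each lay close together. The means were 12.3 ± 1.14 and 19.3 ± 1.55 FPKM, 0.61 apart on the log2 scale (SE 0.12, limma adjusted p = 0.0492), and 0.25 apart once rescaled (limma adjusted p = 0.452). Without nitroglycerin library 1 the difference was 0.62 (limma adjusted p = 0.136). Its level is uncertain, because a second annotated row with the symbol held 29.2% of that of the first, at 3.69 ± 0.567 and 5.54 ± 0.341 FPKM (limma adjusted p = 0.0589).

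Uqcrc1, a core protein of the complex, stood at 6.54 to 9.11 FPKM in controls and 9.61 to 12.5 in nitroglycerin libraries, without overlap (difference 0.48, SE 0.14, limma adjusted p = 0.0675, and 0.13 once rescaled). Uqcrc2, its partner core protein, overlapped, at 15.9 to 21.3 against 17.9 to 26.6 FPKM. Uqcrq, a small subunit, met its controls at 6.97 FPKM in control 2 and nitroglycerin library 2. Uqcrh, the hinge protein and the most abundant gene of the complex, had means of 32.7 ± 5.82 and 33.8 ± 5.90 FPKM, a difference of 0.05 (SE 0.18) and of -0.33 after rescaling (limma adjusted p = 0.857 and 0.470). Uqcr10, another small subunit, varied within groups, at 0.191, 3.03, 3.68 and 3.23 against 0.779, 0, 6.19 and 4.24 FPKM, and the value of 0 is a listing that may be a failed estimate.

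Complex IV, the cytochrome c oxidase, had a median difference of 0.17 over its 16 genes, the lowest of the 5 complexes over all 8 libraries. Without control 3, nitroglycerin library 3 or library 1 of both groups, another complex was lower, with 0.32, 0.37 and 0.25 for the tested genes of complex IV (0.24 over all 8). After rescaling its median was -0.10, with 5 of the 16 above 0 (52.4% of all tested rows). Whether the complexes differed from each other was not tested. Cox5a, a subunit on the matrix side, stood at 6.67, 9.35, 8.42 and 9.08 FPKM in controls and 18.5, 11.2, 13.3 and 15 FPKM in nitroglycerin libraries. The groups did not overlap, before or after rescaling (8.99 to 10.0 against 10.5 to 16.0). The log2 values were 0.71 apart (SE 0.17, limma adjusted p = 0.0593), and 0.36 once rescaled (limma adjusted p = 0.323).

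Cox7a2 stood at 28.7, 15.4, 31.5 and 26.5 against 51.4, 39.5, 40.7 and 44.6 FPKM, without overlap as deposited (difference 0.80, SE 0.22, limma adjusted p = 0.0666). After rescaling it overlapped, with control 1 at 38.7 and the nitroglycerin libraries at 34.3 to 44.4 (difference 0.43, limma adjusted p = 0.561). The abundant genes of the complex were less separated. Cox4i1, a regulatory subunit, had means of 47.0 ± 5.36 and 63.9 ± 9.57 FPKM (limma adjusted p = 0.0994), with nitroglycerin library 4 below control 2. Cox7a2l, known for a part in joining complexes III and IV, had means of 44.0 ± 7.85 and 57.5 ± 6.91 FPKM, and Cox6a1 44.6 ± 10.2 and 52.0 ± 6.52 FPKM. Cox6c was the one gene whose nitroglycerin libraries were all below the controls after rescaling, at 48.6 to 50.9 against 34.0 to 47.2, and as deposited it had means of 44.0 ± 4.68 and 48.7 ± 6.01 FPKM. Cox8a swung between libraries, at 0.0856, 15.1, 0.679 and 5.16 against 0.875, 0.759, 43.0 and 49.5 FPKM, and its difference of 1.34, the highest of all members, had an SE of 1.33.

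Several subunits of complex IV have tissue-specific forms, and their ratios were compared within each library, with 0.1 added to each FPKM. Cox4i2, the form known to respond to oxygen in lung, stood at 2.21, 2.26, 2.60 and 4.34% of Cox4i1 in controls and at 1.96, 1.84, 1.51 and 2.64% in nitroglycerin libraries. The groups overlapped: library 4 was the highest in each. The difference in log2 ratio was -0.49 (exact two-sided permutation p = 0.114, 0.457 adjusted over 4 pairs; the smallest p that 70 splits allow is 0.0286). Cox6b2, known from testis, against Cox6b1 differed by -0.02 (exact permutation p = 1), and Ndufa4l2, a hypoxia-induced gene, against Ndufa4 by -0.04 (exact permutation p = 1). Cox8b, a muscle and brown fat form listed at 0 in control 2, against Cox8a differed by -1.79 with wide scatter (exact permutation p = 0.543, 1 adjusted). Cox6a2 and Cox7a1, the forms of heart and skeletal muscle, were under 0.1 FPKM in too many libraries for a ratio.

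Complex V held the most abundant gene of all members. Atp5b, the catalytic beta subunit, stood at 74.8, 83.8, 95.7 and 99.5 FPKM in controls and 157, 110, 110 and 124 FPKM in nitroglycerin libraries. The groups did not overlap, and library 1 stood highest. The difference was 0.49 (SE 0.17, limma adjusted p = 0.0932), 0.37 without library 1, and 0.10 after rescaling (limma adjusted p = 0.83). Atp5a1, the alpha subunit that alternates with it, stood at 48.8 to 54.6 against 56.7 to 73.8 FPKM, again without overlap, and its difference of 0.28 was -0.10 after rescaling.

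The 3 lowest p values of the complex belonged to small or membrane subunits. Atp5i, subunit e, stood at 4.87, 5.69, 6.43 and 3.78 against 8.29, 8.45, 8.09 and 9.71 FPKM, without overlap (difference 0.65, SE 0.15, limma adjusted p = 0.0581, and 0.32 once rescaled). Atp5j, coupling factor 6, stood at 2.22 to 2.75 against 3.27 to 3.93 FPKM (difference 0.41, SE 0.10, limma adjusted p = 0.0615, and 0.12 once rescaled). Atp5g2, a gene for the proton-carrying c ring, was at 9.39 to 11.5 FPKM in 3 controls and 19.4 in control 2, against 18.6 to 22.6. Without control 2 it was called (difference 0.93, limma adjusted p = 0.0468), and with it not (0.72, limma adjusted p = 0.0696). Atp5l, subunit g, overlapped at 40.4 to 59.0 against 49.4 to 86.1 FPKM.

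Atp5d, the delta subunit of the central stalk, had a difference of 0.01, with control 1 at 11.5 FPKM and the other 3 controls at 3.78 to 4.91, below the nitroglycerin libraries at 5.22 to 6.30. Atp5sl, which the rule takes by its symbol and which is known as an assembly factor of complex I, stood at 2.46 to 6.10 against 1.91 to 6.34 FPKM (difference -0.12, SE 0.33). Over the complex, 16 of 17 genes were above 0 (86.6% of all tested rows), with a median difference of 0.41, and 0.08 after rescaling. Atp5f1, subunit b, had means of 3.60 ± 0.362 and 5.11 ± 0.911 FPKM, and is uncertain because a near copy, LOC100911417, had 3.60 ± 0.360 and 5.11 ± 0.913 FPKM.

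**Figure D4:**
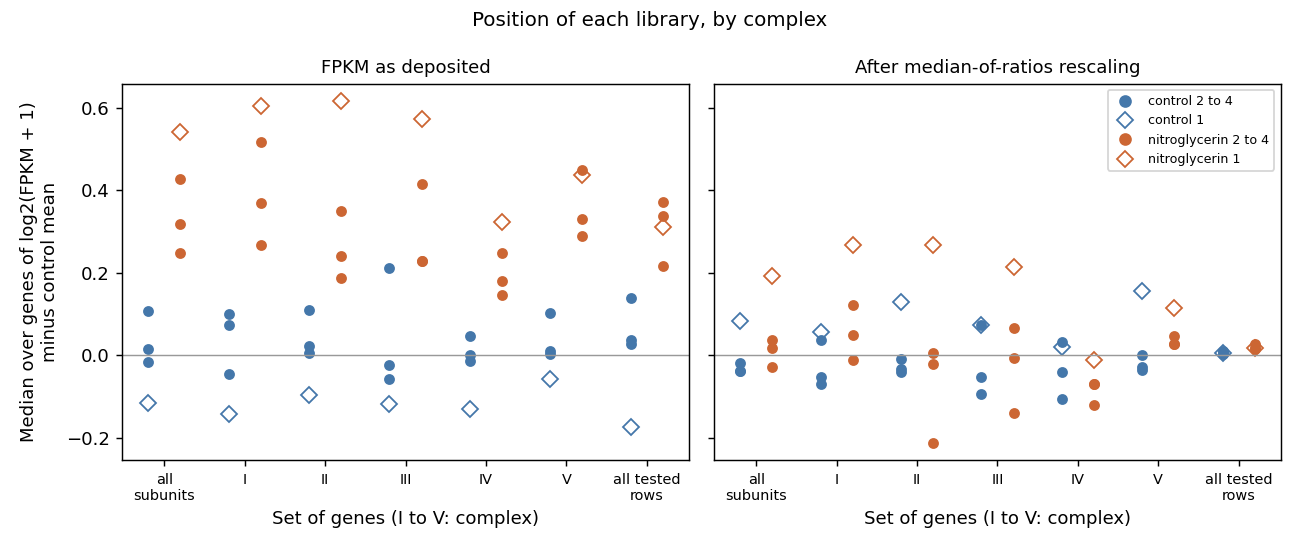
Median over all subunit genes, and over those of each complex, of log2(FPKM + 1) minus the control mean in each library (blue control, orange nitroglycerin, open diamonds library 1 of each group), beside the median of all tested rows, as deposited and after rescaling. As deposited nitroglycerin library 1 had the highest member median (0.54, with all rows at 0.31), and after rescaling libraries 2 to 4 lay between -0.03 and 0.04.

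Library by library, the members lay close to the median gene in nitroglycerin libraries 2 to 4 and above it in library 1. The member medians were 0.54, 0.25, 0.32 and 0.43 above the control mean in nitroglycerin libraries 1 to 4, and those of all tested rows 0.31, 0.22, 0.34 and 0.37. Library 1 was the highest of the 8 for 37 of the 80 genes (46.2%), 20 of them in complex I, and for 16.7% of all tested rows. After rescaling the member medians were 0.19 in library 1 and 0.02, -0.03 and 0.04 in libraries 2 to 4, with controls at 0.08, -0.04, -0.02 and -0.04, so control 1 was above the other 3 nitroglycerin libraries.

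The same library held the most RNA of fat, a tissue around the aorta that is rich in mitochondria where it is brown. The adipokine gene Adipoq stood at 15 FPKM in nitroglycerin library 1 and at 0.0965 to 1.80 FPKM in the other 7, and the lipid-droplet gene Plin1 at 20.8 against 0.401 to 3.32. Of the brown fat markers, the uncoupling protein gene Ucp1 stood at 11.5 FPKM there, 5.10 in control 1 and at most 0.447 elsewhere, and Cidea at 12.4 against 4.05 to 5.72. Ppara (2.65 FPKM) and Plin5 (0.870 FPKM) were also at their highest in library 1. Prdm16, Pank1 and Kcnk3 were not, at 3.82, 1.80 and 1.25 FPKM there and up to 6.88, 2.48 and 1.43 FPKM in another library. Elovl3 and Dio2, both known from brown fat, were listed at 0 in library 1 and in most other libraries. Of 10 general adipocyte markers all had a row, with summed levels of 9.07 to 27.5 FPKM in controls and 22.9 to 153 in nitroglycerin libraries. Of 10 brown markers 9 had a row, summing to 10.8 to 16.0 and 12.2 to 34.3 FPKM.

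Without nitroglycerin library 1, 0 of 75 members were called, and 31 were higher at an unadjusted limma p under 0.05 (26.9% of rows) and 0 lower (0.871%). Their median difference was then 0.35, with 0.30 for all rows. Rescaled without that library, 3 were higher and 3 lower (3.95% and 5.25% of rows), with a median of 0.02. The fat-marker score is a mean over 9 markers that passed the filter, which Adipoq and Ucp1 did not. Of the 9, Dgat2 reached 1 FPKM in 1 control and 3 nitroglycerin libraries, and Kcnk3 in 0 and 4. Both thus entered the score through the group where they were high. Controls 1 to 4 scored 2.06, 1.91, 1.61 and 1.57. Nitroglycerin libraries 1 to 4 scored 3.38, 2.07, 2.02 and 2.19, and only control 1 reached their range. These scores are from deposited values, in which the median of all tested rows was 0.30 higher with nitroglycerin. The score thus went partly with the group, so a fit with it cannot separate fat from treatment. With the score as a covariate 20 members were higher and 0 lower (24.4% and 0.717%), and 0 were called. The member median was then 0.32, against 0.31 for all rows. With both the covariate and rescaling, 2 were higher and 3 lower (4.63% and 5.59%), with a median of 0.01. Leaving out library 1 of both groups gave 25 higher and 0 lower (18.9% and 1.09%), and a median of 0.30 against 0.24.

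**Figure D5:**
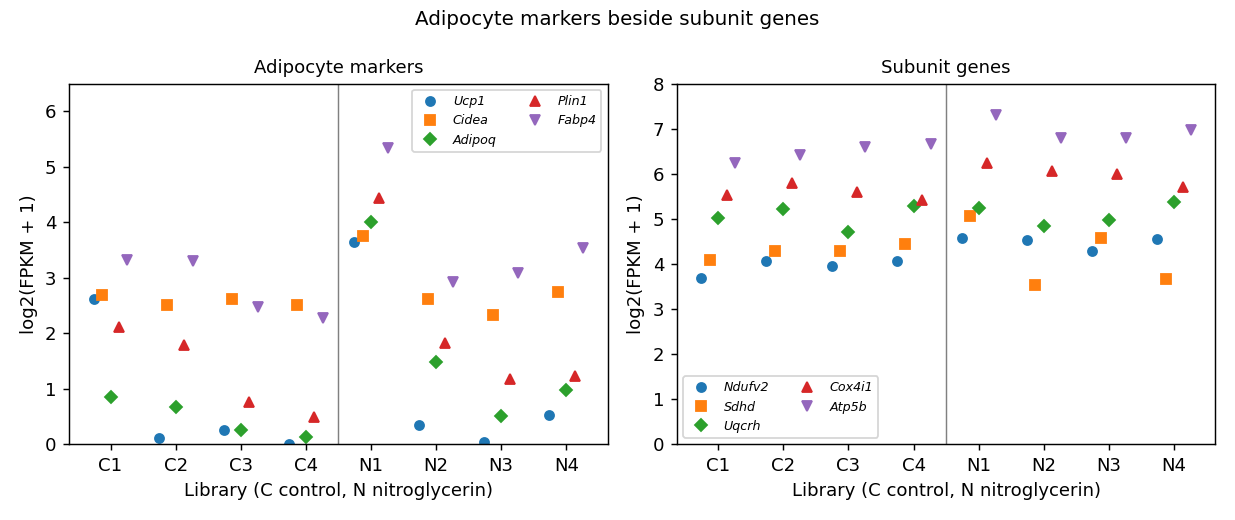
Log2(FPKM + 1) of adipocyte markers (left) and of the most abundant subunit gene in each complex (right) in each library (C control, N nitroglycerin). Adipoq, Plin1, Ucp1, Cidea and Fabp4 are highest in nitroglycerin library 1 (Adipoq 15 FPKM), where Ndufv2, Sdhd, Cox4i1 and Atp5b are also at their highest, while Uqcrh is highest in library 4 (40.4 FPKM).

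Markers of other cell types were summed in the same way. Summed smooth muscle markers were 2033 to 2708 FPKM in controls and 1267 to 2658 in nitroglycerin libraries (7 of 8 with a row), with library 1 the lowest. That sum was mostly Acta2 (2075 ± 270 and 1602 ± 585 FPKM). Means of Myh11, Cnn1 and Des were also lower with nitroglycerin. Those of Lmod1 (10.4 ± 1.12 and 19.1 ± 4.75 FPKM), Smtn and Myocd lay the other way. Endothelial markers (6 of 7) summed to 23.2 to 47.1 and 41.7 to 50.2 FPKM, macrophage markers (5 of 6) to 21.3 to 26.5 and 29.1 to 37.7, and fibroblast markers (4 of 5) to 1683 to 2436 and 1377 to 1505. Cardiac (9 of 10) and skeletal (8 of 10) muscle markers summed to 3.03 to 16.2 and 2.31 to 5.73, and to 26.8 to 37.3 and 19.0 to 25.9 FPKM, with the heart myosin gene Myh6 at 0 to 0.192. Over these lists limma called the endothelial Esam and the macrophage Cd163 higher and the skeletal Ckm lower as deposited (1.29% and 0.0616% of rows). After rescaling the limma adjusted p was 0.211 for Esam, 0.160 for Cd163 and 0.0351 for Ckm, of which Ckm alone was still called. The summed macrophage, fibroblast and skeletal ranges did not overlap between groups as deposited. The fibroblast sum was mostly Col1a1 (1779 ± 302.0 and 1151 ± 33.5 FPKM), while Dcn (75.5 ± 26.3 and 128 ± 13.2) and Pi16 (18.5 ± 5.55 and 30.2 ± 10.2) lay the other way, and the median difference of the list was 0.26. The part of any of these cells in the subunit differences was not tested.

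The rest of the pathway was read from lists of related genes. Among 13 subunits encoded in mitochondrial DNA, 7 had a row and 4 were tested, with 0 called by limma. At an unadjusted limma p under 0.05, 1 was higher, Mt-nd5, beside 34.1% of all rows. Of the 4, 2 reached 1 FPKM in under 2 libraries of a group, so these counts are no measure of the list. Mt-nd5 reached it in 1 control and all 4 nitroglycerin libraries, and so entered through the group where it was high. The values of these subunits jumped between libraries: Mt-co1, the catalytic subunit of complex IV, was listed at 0, 0.645, 127 and 100 FPKM in controls and at 8.12, 131, 125 and 1.2e-05 in nitroglycerin libraries. Mt-nd5, a proton-pumping subunit of complex I, was listed at 30.5, 0, 0 and 0 against 35, 22.9, 25.6 and 33.5 FPKM. Such zeros in an abundant transcript may be failed estimates, so no level is drawn from them. Of 5 nuclear subunits and carriers outside the symbol rule 3 had a row and 2 were tested, with 0 called. At an unadjusted limma p under 0.05, 2 were higher (34.1% of all rows), and 0 after rescaling (5.5%). Cyc1 (cytochrome c1) averaged 4.69 ± 0.164 and 6.32 ± 1.34 FPKM (limma adjusted p = 0.118) and Ndufab1 averaged 1.86 ± 0.146 and 2.66 ± 0.289 FPKM (limma adjusted p = 0.0706). Their differences after rescaling were 0.02 and 0.09.

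Among assembly factors, which build the complexes without staying in them, 35 of 49 were tested and 0 called by limma, with 15 higher and 1 lower at an unadjusted p under 0.05, and 5 and 1 after rescaling. As deposited 34.1% of all rows were higher and 1.02% lower at that p, and after rescaling 5.5% and 6.44%. Of the 35, 4 reached 1 FPKM in under 2 libraries of a group, so these counts are no measure of the list. Their median difference was 0.34, and 0.08 after rescaling. Atpaf1, a factor of the ATP synthase, stood at 0.340 to 1.04 FPKM in controls and 1.46 to 2.06 in nitroglycerin libraries (difference 0.69, limma adjusted p = 0.0608, and 0.49 with 0.261 after rescaling). The complex I factors Ecsit and Timmdc1 stood at 3.66 ± 0.653 and 6.01 ± 0.982, and at 1.92 ± 0.469 and 3.22 ± 0.431 FPKM. Sdhaf4, a factor of complex II, stood at 0.788 ± 0.144 and 1.77 ± 0.421 FPKM. Sdhaf4 reached 1 FPKM in 0 controls and Atpaf1 in 1, and both in all 4 nitroglycerin libraries, so they entered the test through the group where they were high.

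Of 14 regulators of respiratory genes 12 were tested and 0 called. At an unadjusted limma p under 0.05, 6 were higher and 0 lower (34.1% and 1.02% of all rows). After rescaling none passed in either direction (5.5% and 6.44% of rows). Tfam, which packages and transcribes mitochondrial DNA, had the lowest p, at 3.11, 2.84, 3.42 and 3.95 FPKM in controls and 5.05, 5.24, 5.02 and 5.05 in nitroglycerin libraries. The 4 nitroglycerin values lay close together and above all controls (0.50 apart, SE 0.11, limma adjusted p = 0.0558, 0.569 once rescaled). Tfb1m, a mitochondrial rRNA methyltransferase, stood at 1.47 ± 0.317 and 2.29 ± 0.273 FPKM. Ppargc1a, the coactivator of mitochondrial biogenesis, was below the filter, at 0.0638 to 0.233 and 0.102 to 0.362 FPKM.

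Of 17 other proteins of mitochondrial membranes 15 were tested and 0 called. At an unadjusted limma p under 0.05, 5 were higher (33.3%, beside 34.1% of all rows) and 0 lower (1.02% of rows). After rescaling 0 were higher and 1 lower, against 5.5% and 6.44% of rows. The fusion protein gene Mfn2 stood at 3.97 ± 0.514 and 5.59 ± 0.530 FPKM and the cristae gene Immt at 3.65 ± 0.451 and 4.93 ± 0.327. Timm50, of the import machinery, stood at 2.01 ± 0.293 and 3.05 ± 0.524, and the prohibitin gene Phb2 at 8.55 ± 1.93 and 13.6 ± 2.52 FPKM. Their median difference was 0.35, and 0.03 after rescaling, beside 0.42 and 0.08 for the 75 tested subunit genes.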

How the data were processed

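Total RNA was sequenced after ribosomal RNA was depleted. Bowtie 0.12.2, HISAT2 2.0 and StringTie 1.3.0 and the builds mm8 and Rnor_6.0 are listed, with no role for any, per the submitters' processing notes. The deposited gene table holds FPKM, and the deposited table of long non-coding RNAs holds FPKM and a coverage signal per transcript, per the file headers. Their ratio gave the aligned gigabases, 6.77 to 8.86 per library. Without read counts no counting interval is given.

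The 12977 rows that reached 1 FPKM in 4 or more libraries were tested as log2(FPKM + 1) with limma 3.58.1 (R 4.3.3, mean-variance trend), with Benjamini-Hochberg adjustment over all rows and a threshold of 0.05. Differences are on that scale and understate those of low genes. Isoform ratios used log2 with a pseudocount of 0.1 and exact permutation. The fit was tested on simulated data, in which rows varied independently and most had no group difference. That test does not cover the shift of most rows seen here. Figures were drawn with matplotlib 3.10.9 (Python 3.11.15). Members, lists and tests were chosen with earlier results of these data known. Named genes were, per complex, the 3 of highest mean and the 3 of lowest p, with the isoform pairs, called members and the 5 highest and 5 lowest differences. From the other lists up to 4 of lowest p were named. Cox6c, Atp5f1, Ppargc1a, Mt-co1, the fat markers, Myh6, Esam, Cd163, Ckm, Col1a1, Dcn and Pi16 were chosen after their values were seen. So were the smooth muscle markers Lmod1, Smtn, Myocd, Cnn1 and Des.

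Replicate numbers were shared by the groups. Deviations of same-numbered libraries correlated at 0.13, -0.01, -0.01 and 0.12, and those of differently numbered libraries at -0.18 to 0.09. The values of 0.13 and 0.12 were the highest of all pairs. Whether the numbers pair the libraries was not tested, and the main fit took them as unpaired. Alternatives covered the pseudocount, filter, scaling, row set, a fat-marker covariate, a replicate block and leaving out each library. The matched RefSeq promoters number 70.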

Additional observations from a re-analysis of the deposited data

Results flagged for a closer look

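In 6 of 82 groups of 4 (7.32%), 1 library stood apart from the other 3 by Dixon's criterion, where chance gives about 1 in 20. Over all members, named or not, 1 library stood apart in 9 of 160 groups. Control 2 was high for Ndufb11 (18.5 FPKM, others 8.43 to 9.43), Ndufs7 (11.9, others 9.63 to 9.80) and Uqcrc2 (21.3, others 15.9 to 16.4). Control 1 was high for Atp5d (11.5 FPKM, others 3.78 to 4.91). Nitroglycerin library 3 was low for Ndufv2 (18.6 FPKM, others 22.3 to 22.9). The fat-marker score, a mean log2 value over 9 adipocyte markers, was 3.38 in nitroglycerin library 1 and 2.02 to 2.19 in the rest of its group.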

How the results depend on the processing

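The count of rows called, 175 in all, was 7 with a pseudocount of 0.1, 26 without the filter, 384 with a stricter filter of 5 FPKM, 17 with median-of-ratios rescaling, 15 with quantile normalization, 0 with the fat-marker covariate and 828 with annotated rows only, and ranged from 5 to 284 without 1 library. For members, 2 as reported, the counts were 0, 0, 11, 0, 0, 0 and 10 in the same order, and 0 to 1 without 1 library. Fewer rows were tested under the stricter filter and with annotated rows only. The cause of the changed counts was not tested for any setting. Under the stricter filter 57 members were tested, and 369 of 3997 rows were called higher, beside the 11 members. With the replicate number as a block, 0 rows and 0 members were called. There 37 of 75 members were higher at an unadjusted limma p under 0.05, beside 3869 of 12977 rows.

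The 4 alternatives chosen after seeing the data gave 1 row without replicate 1 of both groups, 6 with rescaling and no nitroglycerin library 1, 19 with rescaling and annotated rows only, and 4 with rescaling and the fat-marker covariate, and 0 members in each. The median difference of the 75 tested members, 0.42, was 0.084 after rescaling, 0.14 with quantile normalization, and 0.30, 0.018, 0.084 and 0.0080 under those 4. The median of complex III turned from 0.33 to -0.013 with rescaling and no library 1 and to -0.0082 with rescaling and the covariate. That of complex IV turned from 0.24 to -0.11 after rescaling, -0.064 without library 1 as well, -0.11 with annotated rows only and -0.087 with the covariate.

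Of 36 named members, 17 changed sign in some setting and 7 did so after rescaling. Over 713 settings 0 called differences reversed, but only Ndufb3 and Uqcrb were called, so that count says little of stability. Ndufb3 lost its call in 17 of 20 alternatives and Uqcrb in 18. Adjusted p values of Ndufb3 ranged from 0.0387 to 0.326 and those of Uqcrb from 0.0387 to 0.613. For isoform ratios the smallest exact p of 0.0286, adjusted over 4 pairs, does not let a lone pair pass, so those settings say nothing of stability. Removal of a trend over transcript length was not run. Without read counts, precision at low FPKM is unknown.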

Other observations

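A locus that carries the symbol Cox7a1 but holds only assembled transcripts averaged 4.58 ± 0.929 FPKM in controls and 5.47 ± 0.764 with nitroglycerin (limma adjusted p = 0.306), while the annotated Cox7a1 row was at 0 to 0.231 FPKM. The deposited table of long non-coding RNAs lists 2 transcripts there, each of 2 exons and of a class that overlaps an exon on the opposite strand. With the counting of strand not given in the sources used here, reads of the gene and of its antisense partner cannot be told apart, so neither value is taken as the level of Cox7a1.

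LOC679739, described in the gene table as an iron-sulfur subunit of complex I and outside the symbol rule, stood at 1.91 ± 0.365 and 2.84 ± 0.632 FPKM (limma adjusted p = 0.113).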
